A study of Homo sapiens with 6 samples.

Results

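The genes described here are 31 transcriptional targets of the tumour suppressor p53, measured in SH-SY5Y cells given an anti-miR against the microRNA miR-137. They were taken from a named list of p53 targets, and each was represented by the brightest of the probe sets annotated to its symbol alone, judged by the mean over all 6 arrays. A probe set of the right kind was found for 29 of the 31 genes, and 27 passed a filter on dim probe sets (a mean log2 value under 5.69, the 40th percentile), out of 12639 genes that passed it in all. BTG2 and FDXR had no probe set used here, and FAS and APAF1 lay below the filter.

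SH-SY5Y is an established human neuroblastoma line with a sympathetic neuron-like character, often used as a neuronal cell model. In the anti-miR-137 group the cells received 15 pM of an anti-miR oligonucleotide against hsa-miR-137, and in the control group 15 pM of a negative control anti-miR, both with Lipofectamine RNAiMAX and 24 hours after seeding. Total RNA was taken 72 hours after transfection, 100 ng of it were amplified and biotin-labelled, and each RNA was hybridised to a 1-colour expression array. Each group held 3 arrays with replicate numbers 1 to 3 (RNA integrity numbers of 9.5, 9.7 and 9.7 after anti-miR-137 and 9.7, 9.8 and 9.7 in control cells). Cells of both groups went through lipofection and carried an anti-miR, and untransfected cells are not analysed here. The study asked which mRNAs change when miR-137 is knocked down. Whether the level or action of miR-137 fell in these cells was not tested here. The labels do not say whether the replicates were separate cultures, or what a replicate number stands for, and the spread behind each p-value is that of these arrays, possibly a technical one. With so few arrays, their number limits the precision of every value.

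As background, p53 is kept at a low level by MDM2, a ubiquitin ligase that marks it for destruction and is itself induced by p53. DNA damage and other stresses free p53 from this loop, and it then switches on genes that stop the cell cycle, repair DNA, adjust metabolism or start apoptosis. None of this is a result of the arrays.

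The microRNA named as the target of the anti-miR is shown in its mature 3p form, with the seed (bases 2 to 8), the stretch that pairs with target mRNAs, in capitals. It lies at chr1:98046091-98046113 on the minus strand (RefSeq, GRCh38.p14).
hsa-miR-137-3p: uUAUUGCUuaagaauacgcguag

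Promoters of the members were searched for the p53 consensus response element, the sequence that the p53 tetramer binds. RefSeq promoter windows (GRCh38.p14, 250 bases before to 50 after each gene's start) were available for 26 members, some with more than 1 start. The element of 20 bases was searched on both strands with no spacer, at most 3 mismatches, and C and G kept at their fixed places in each of its arms. It matched in 7 members and in 8 of their 38 windows (21.1%), against 392 of all 35116 windows (1.12%). The members with a match were MDM2, GDF15, SESN1, DDB2, AEN, FAS and FDXR. A match describes letters in a window and does not show that p53 binds there, and a window without one says nothing about sites elsewhere in the gene. The windows of GDF15 and MDM2 are printed in full because these were the members whose anti-miR-137 and control arrays did not overlap. The 20 matched bases are in capitals, the GDF15 window lies at chr19:18385908-18386207 (plus strand, 3 mismatches) and the MDM2 window at chr12:68808767-68809066 (plus strand, 2 mismatches).
GDF15: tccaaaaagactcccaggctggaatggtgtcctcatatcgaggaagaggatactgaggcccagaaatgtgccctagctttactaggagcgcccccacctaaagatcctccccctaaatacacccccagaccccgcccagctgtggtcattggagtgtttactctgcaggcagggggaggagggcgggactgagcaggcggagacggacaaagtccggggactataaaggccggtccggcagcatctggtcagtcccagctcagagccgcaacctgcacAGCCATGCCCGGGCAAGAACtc
MDM2: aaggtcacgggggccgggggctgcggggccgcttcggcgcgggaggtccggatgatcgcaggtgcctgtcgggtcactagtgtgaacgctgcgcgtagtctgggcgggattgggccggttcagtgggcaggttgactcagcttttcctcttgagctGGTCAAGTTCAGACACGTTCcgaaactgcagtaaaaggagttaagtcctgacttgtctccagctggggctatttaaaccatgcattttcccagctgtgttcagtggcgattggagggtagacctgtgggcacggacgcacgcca

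For the other members with a match and a measured value, the matched 20 bases alone are given in the direction of the gene, with the fixed core of each arm in capitals. The DDB2 match lies at chr11:47214969-47214988 (plus strand, 1 mismatch), the AEN match at chr15:88621306-88621325 (plus strand, 2 mismatches) and the SESN1 match at chr6:109009018-109009037 (minus strand, 3 mismatches).
DDB2: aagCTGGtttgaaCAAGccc
AEN: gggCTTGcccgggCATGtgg
SESN1: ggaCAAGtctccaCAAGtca

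The arrays resembled each other in their overall distribution, with medians over all probe sets of 6.42 to 6.43 after anti-miR-137 and 6.39 to 6.42 in control cells. All pairs of arrays differed in their values. Of 16 markers of noradrenergic neuroblastoma cells, 15 had a probe set used here and these 15 passed the filter. So did 12639 of all 18244 genes with such a probe set. Passing the filter thus does not establish the cell type, which is taken from the label. GATA2, for example, lay between 13.35 and 13.41 after anti-miR-137 and between 13.40 and 13.46 in control cells. Of 8 mesenchymal markers 5 passed the filter. Of 8 Schwann or glial markers 6 had a probe set used here and 4 passed. The summed log2 values of these 4 were 28.1 to 28.3 after anti-miR-137 and 27.7 to 28.0 in control cells. Those of the 5 mesenchymal markers were 41.8 to 42.8 after anti-miR-137 and 41.7 to 41.8 in control cells. GFAP (0.20) and OLIG2 (0.27) of the glial list had higher values in all anti-miR-137 arrays than in all control arrays, at an adjusted p of 1.00 in limma. These are 2 of only 4 genes (50%), and the groups did not overlap, in either direction, for 7.36% of all genes. The other 2 glial markers had overlapping groups and a lower mean after anti-miR-137, S100B by -0.035 and SOX10 by -0.069. Whether mesenchymal or glial cells were present at all was not tested, nor was any part of theirs in the values of the p53 targets. In bulk RNA, a change in the number of cells of a kind cannot be told from a change in RNA per cell. Values of a gene below are the deposited log2 values, normalised by RMA (robust multi-array average), and are compared between arrays only, since brightness differs between probe sets for technical reasons.

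No p53 target passed the test between anti-miR-137 and control cells, and the measured differences were small. In limma, which fits a linear model per gene and shares variance information between genes, 0 of the 27 measured members had an adjusted p under 0.05 (0% of the 12639 genes did), and the adjusted p was 1.00 for every one of them. At an unadjusted p under 0.05 there were 2 members, GDF15 and PLK3 (7.41%, against 2.65% of all genes). The largest difference in size was -0.29 on the log2 scale, 5 members differed by more than 0.1, and the median size was 0.038 (0.049 over all genes). The 95% confidence interval of a member's log2 fold change extended a median of 0.19 to either side. It included 0 for 25 of the 27 and lay within 0.5 of 0 on both sides for 25. The fit held no term for replicate number, so these intervals include the spread between numbers.

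By sign, 19 of the 27 members (70.4%) had a lower mean after anti-miR-137 than in control cells, where 48% of all genes did. Their median log2 fold change was -0.017, beside 0.0033 over all genes, so most of the lower values lay very close to 0. The anti-miR-137 and control arrays did not overlap for 2 members (7.41%), GDF15 with higher and MDM2 with lower values after anti-miR-137, and for 7.36% of all genes. Compared number by number, the anti-miR-137 array was higher in all 3 numbers for 1 member, GDF15 (15% of all genes), and lower in all 3 for 3 members, MDM2, RRM2B and TNFRSF10B (13.2% of all genes). The shares of members that did not overlap were thus near those of all genes.

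**Figure D1:**
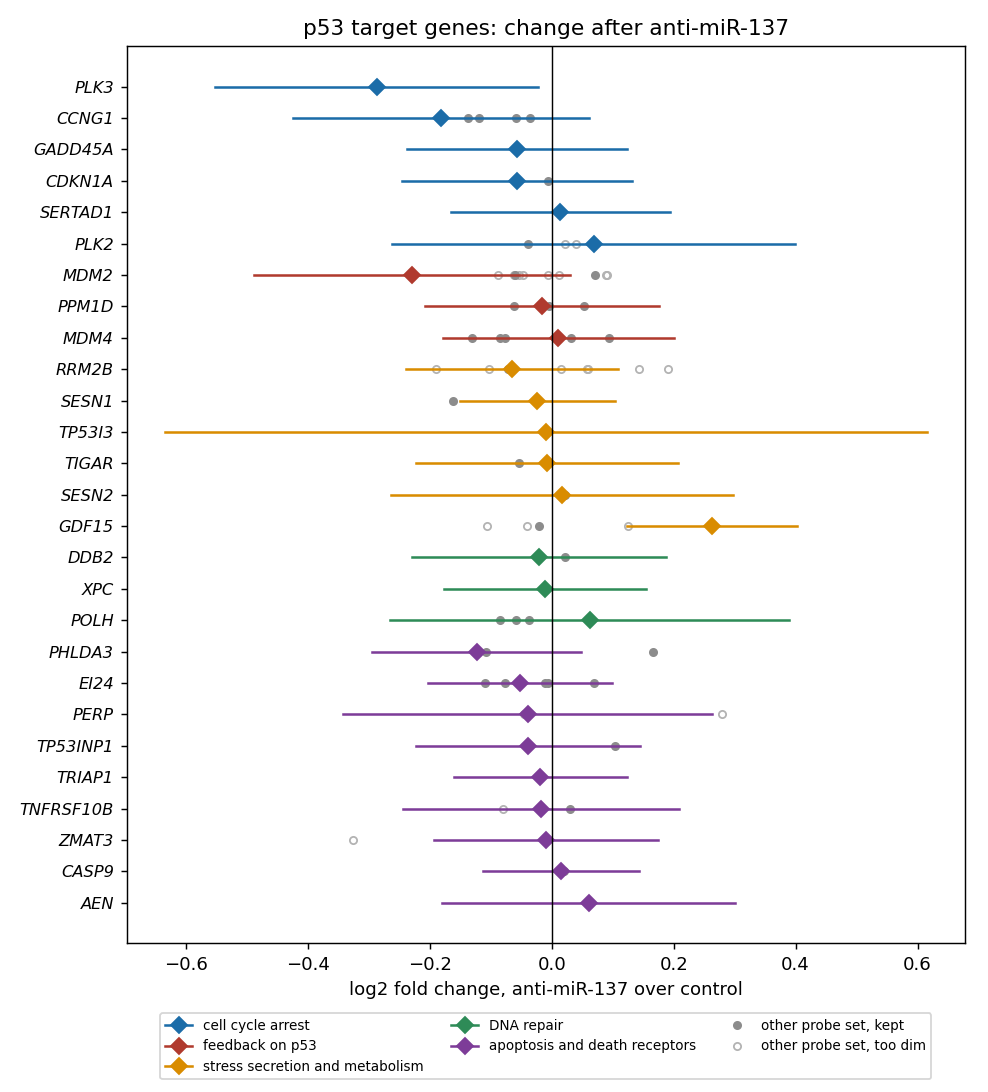
Log2 fold change of each measured p53 target, anti-miR-137 over control, on the horizontal axis, with members grouped by role down the page. Diamonds mark the brightest probe set with its 95% confidence interval, and circles mark the other probe sets of the gene, open where they lie below the filter. The intervals of 25 of 27 members include 0, and other probe sets of MDM2 and GDF15 lie near or beyond 0 on the other side.

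Members grouped under the cell cycle were measured for 6 of 7 genes, 2 with a higher and 4 with a lower mean after anti-miR-137 (median log2 fold change -0.057). CDKN1A encodes p21, the inhibitor of cyclin-dependent kinases through which p53 stops the cycle. It read 10.56, 10.62 and 10.54 after anti-miR-137 and 10.65, 10.76 and 10.48 in control cells. The groups overlapped, with the lowest value in control array 3, and the log2 fold change was -0.057 (SE 0.081, 95% interval -0.25 to 0.13). Its other probe set gave -0.0058. GADD45A, a stress protein that inhibits CDK1 and takes part in repair, read 9.18, 9.08 and 9.33 after anti-miR-137 and 9.23, 9.22 and 9.31 in control cells. Its groups overlapped too, at a log2 fold change of -0.057 (interval -0.24 to 0.12).

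PLK3, a polo-like kinase of the stress response, had the largest difference among the members. Its values were 6.46, 6.65 and 6.87 after anti-miR-137 and 6.95, 7.06 and 6.84 in control cells. Anti-miR-137 arrays 1 and 2 lay below all control arrays, whereas array 3 lay above control array 3. The log2 fold change was -0.29 (SE 0.11, interval -0.55 to -0.022), with an unadjusted p of 0.037 and an adjusted p of 1.00 in limma, and the gene has only 1 probe set. Without anti-miR-137 array 1 the PLK3 difference was -0.19. Its relative PLK2 read 7.28, 6.80 and 7.28 after anti-miR-137 and 7.07, 6.92 and 7.17 in control cells, a difference of 0.069 (interval -0.26 to 0.40). In both groups array 2 was the lowest for PLK2.

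CCNG1 encodes cyclin G1, which brings a phosphatase to MDM2. It read 10.93, 10.87 and 10.60 after anti-miR-137 and 11.09, 10.87 and 10.99 in control cells. Anti-miR-137 array 3 was the lowest of the 6, and the arrays numbered 2 were alike. The log2 fold change was -0.18 (SE 0.10, interval -0.42 to 0.062, unadjusted p 0.12 and adjusted p 1.00 in limma), and all 4 other probe sets were lower too, at -0.14 to -0.035. Without anti-miR-137 array 3 the CCNG1 difference was -0.079, and over all fits without 1 array it was -0.25 to -0.079. SERTAD1, a CDK4-binding protein, differed by 0.014 (interval -0.17 to 0.19).

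All 3 members that feed back on p53 were measured. MDM2 read 7.91, 7.81 and 7.992 after anti-miR-137 and 7.997, 8.03 and 8.38 in control cells. The groups did not overlap, but anti-miR-137 array 3 and control array 1 nearly met, and control array 3 stood above the rest. The log2 fold change was -0.23 (SE 0.11, interval -0.49 to 0.030), a level of 0.853 of control, with an unadjusted p of 0.076 and an adjusted p of 1.00 in limma. Without control array 3 the difference was -0.11. Of the 10 other MDM2 probe sets 6 were lower and 4 higher after anti-miR-137, between -0.088 and 0.091, and only 2 of them passed the filter, at -0.061 and 0.072. The difference thus came from 1 probe set, whose suffix (x) marks possible cross-hybridisation.

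MDM4, the relative of MDM2 that blocks the activating domain of p53, read 9.24, 9.04 and 9.07 after anti-miR-137 and 9.19, 9.13 and 8.999 in control cells. The groups overlapped (0.011, interval -0.18 to 0.20), and its 5 other probe sets lay between -0.13 and 0.093. PPM1D, the phosphatase WIP1 that switches p53 signalling off again, read 9.76, 9.83 and 9.95 after anti-miR-137 and 9.80, 9.80 and 10.00 in control cells. For PPM1D the difference was -0.016 (interval -0.21 to 0.18), and array 3 was the highest in both groups.

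Members of stress secretion and metabolism were measured for 6 of 7 genes, 2 higher and 4 lower after anti-miR-137. GDF15, a cytokine secreted under stress, had the smallest unadjusted p of all members. Its values were 6.88, 6.97 and 6.92 after anti-miR-137 and 6.60, 6.68 and 6.70 in control cells. All anti-miR-137 arrays lay above all control arrays, by 0.28, 0.28 and 0.23 in numbers 1, 2 and 3. The log2 fold change was 0.26 (SE 0.060, interval 0.12 to 0.40), or 1.20-fold, with an unadjusted p of 0.0027 and an adjusted p of 1.00 in limma.

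The other GDF15 probe sets differed from this. Of the 4, 1 was higher after anti-miR-137 (0.13) and 3 were lower, down to -0.11, and the only other one above the filter gave -0.021. Averaging the probe sets above the filter gave 0.12. The brightest GDF15 probe set carries a suffix that marks possible cross-hybridisation (x or s), and so do the 3 lower ones. The other higher probe set carries no such suffix but lay below the filter. Leaving out probe sets with these suffixes thus left none above the filter for the gene.

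SESN1 and SESN2 encode sestrins, which restrain mTORC1 under stress. SESN1 read 9.70, 9.71 and 9.71 after anti-miR-137 and 9.71, 9.76 and 9.71 in control cells, a difference of -0.023 (interval -0.15 to 0.10). It was among the least variable members, and the other SESN1 probe set gave -0.16. SESN2 read 6.87, 6.89 and 7.12 after anti-miR-137 and 6.70, 7.02 and 7.10 in control cells, a difference of 0.017 (interval -0.26 to 0.30). RRM2B, the p53-inducible subunit of ribonucleotide reductase, read 9.46, 9.44 and 9.26 after anti-miR-137 and 9.48, 9.48 and 9.39 in control cells. It was lower in each number, with a mean difference of -0.065 (interval -0.24 to 0.11). Of its 8 other probe sets 3 were lower and 5 higher, between -0.19 and 0.19, and the only one above the filter gave -0.072.

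TP53I3 and TIGAR, which act on quinones and on sugar phosphates, varied between replicate numbers and are described with them below; their treatment differences were -0.0097 (interval -0.63 to 0.62) and -0.0076 (interval -0.22 to 0.21). TP53I3 had the widest interval of all members. The 3 measured DNA repair members overlapped between groups: DDB2 and XPC, which recognise damage for nucleotide excision repair, differed by -0.021 and -0.012, and POLH, a polymerase that copies past lesions, by 0.063. The 3 other POLH probe sets, all above the filter, were lower after anti-miR-137, between -0.085 and -0.037. The other probe set of DDB2 gave 0.023 and that of XPC -0.012.

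Of 11 members of apoptosis and death receptor signalling, 9 were measured, 2 higher and 7 lower after anti-miR-137 (median log2 fold change -0.019). PHLDA3, which keeps AKT off the membrane, read 8.42, 8.51 and 8.50 after anti-miR-137 and 8.71, 8.60 and 8.49 in control cells. Control arrays 1 and 2 were the highest and control array 3 lay within the anti-miR-137 arrays (-0.12, interval -0.29 to 0.048). Its 2 other probe sets gave -0.11 and 0.17. TNFRSF10B, the TRAIL receptor DR5, was lower in each number, with a mean difference of only -0.017 (interval -0.24 to 0.21). The others, EI24, PERP, TP53INP1, TRIAP1, ZMAT3, CASP9 and AEN, had overlapping groups and log2 fold changes between -0.052 and 0.061.

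FAS, the death receptor of the Fas ligand, was dim and was not tested. It read 5.04, 4.65 and 4.78 after anti-miR-137 and 4.64, 4.86 and 4.75 in control cells, so the groups overlapped. APAF1, the scaffold on which CASP9 is activated, was also dim, between 4.96 and 5.17 after anti-miR-137 and between 4.94 and 5.04 in control cells. At such brightness a probe set can carry mostly background, and no level is read from it.

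**Figure D2:**
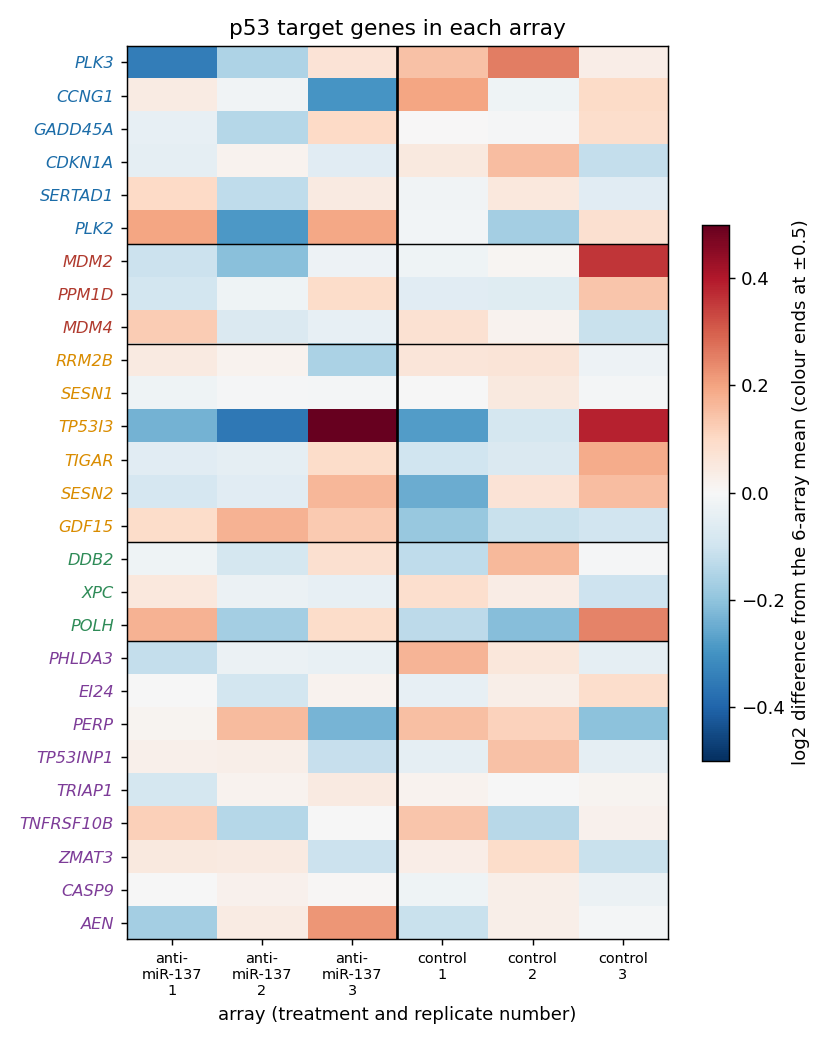
Each measured p53 target in each array, as the log2 difference from its own mean over the 6 arrays, with the 3 anti-miR-137 arrays left of the 3 control arrays and members grouped by role (label colours as roles; the colour scale ends at 0.5 to either side). TP53I3 is high in both arrays numbered 3, while GDF15 is the only member above its mean in all anti-miR-137 arrays and below it in all control arrays.

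Probe sets of the same member often differed in sign. Besides the brightest ones there were 61 other probe sets for 21 measured members, and 35 of the 61 had the same sign of difference between anti-miR-137 and control cells. In 8 members all probe sets had 1 sign, and in 13 at least 1 had the opposite sign. The other 6 measured members had only 1 probe set. When each of the 94 member probe sets was tested on its own among 45278, none had an adjusted p under 0.05 for treatment or for replicate number in limma. The same held for all 45278 probe sets, with 0 called for treatment and 0 (0%) for replicate number.

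Other genes of the p53 pathway showed no called treatment difference either. Of 20 genes that sense damage or act on p53 directly, 18 were measured and 0 were called, 7 with a higher and 11 with a lower mean after anti-miR-137 (61.1% lower, against 48% of all genes; median -0.050). In 8 of the 18 (44.4%, against 13.2% of all genes) the anti-miR-137 array was lower in all 3 numbers. At an unadjusted p under 0.05 there were 0 of them as well. CREBBP, a co-activator of p53, had the smallest p among these genes (0.090), with 9.70, 9.72 and 9.71 after anti-miR-137 and 9.79, 9.84 and 9.81 in control cells. All its anti-miR-137 arrays lay below the control arrays, with a mean difference of -0.11. Of 45 further p53 targets 34 were measured, 17 higher and 17 lower, with 0 called and 0 at an unadjusted p under 0.05. The smallest p among these were those of RAP2B, a Ras-like GTPase (-0.13), SCO2, an assembly factor of cytochrome oxidase (0.13), and BAX, the pore-forming apoptosis protein (-0.38). BAX read 8.09, 7.91 and 8.35 after anti-miR-137 and 8.001, 8.84 and 8.64 in control cells, with control array 1 among the anti-miR-137 values (unadjusted p 0.12 in limma).

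The replicate number, with 1 array of each group per number, went with larger differences than the treatment for most members. The difference between numbers 3 and 1 was larger in size than that between anti-miR-137 and control cells in 21 of 27 members, as it was in 73.3% of all genes. These measures are unlike, since means of 2 arrays per number vary more than means of 3 per group. Numbers 3 and 1 were also the pair of numbers with the most genes called. The median size of the difference between numbers 3 and 1 was 0.14 over the members and 0.12 over all genes. In a limma fit with treatment and number as terms, the F test of number called 1 member, TP53I3 (3.7%), and 2.53% of all genes. At an unadjusted p under 0.05 there were 9 members (33.3%, against 23.5% of all genes). Between numbers 3 and 1 alone, 1 member was called (3.7%, against 8.23% of all genes) and 8 had an unadjusted p under 0.05 (29.6%, against 28.4%).

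TP53I3, also known as PIG3, encodes a quinone oxidoreductase that p53 induces when it triggers apoptosis. It read 8.58, 8.46 and 9.40 after anti-miR-137 and 8.53, 8.73 and 9.20 in control cells, for numbers 1, 2 and 3. Both arrays numbered 3 lay above the other 4. The value in number 3 was higher than in number 1 by 0.74 (SE 0.12, interval 0.46 to 1.03, adjusted p 0.024 in limma), and than in number 2 by 0.71 (adjusted p 0.12). The adjusted p of the F test was 0.04998, just under the threshold, and it was 0.12 when dim probe sets were kept among the genes tested. It also missed the threshold in a fit without anti-miR-137 array 1 or 3 or control array 1 or 3, at 0.13, 0.36, 0.15 and 0.35 in that order. The difference between numbers 3 and 1 kept its sign there but missed the threshold in the same 4 fits and with dim probe sets kept (adjusted p 0.061). The gene has only 1 probe set, so no other reading of it was at hand.

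**Figure D3:**
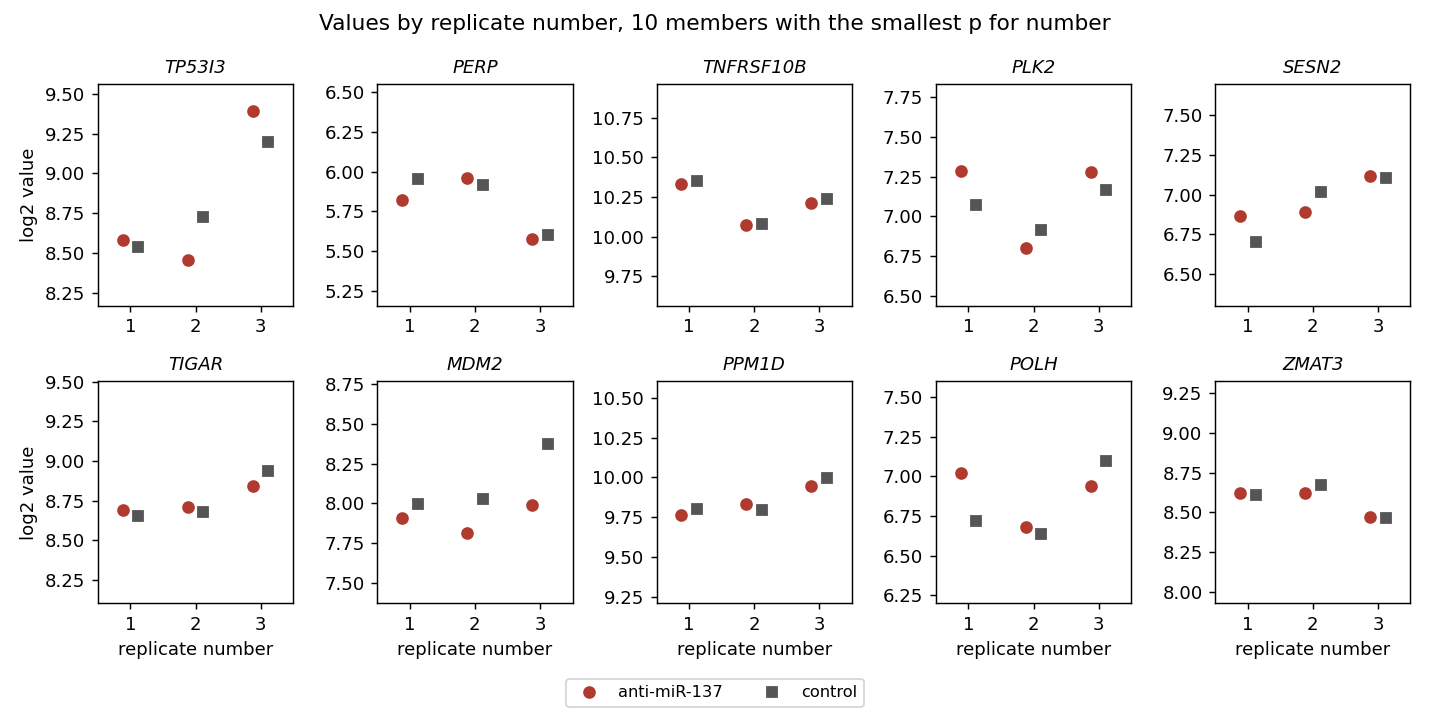
Log2 values of the 10 p53 targets with the smallest p for replicate number, by number on the horizontal axis, with circles for anti-miR-137 and squares for control arrays; each panel has its own vertical range of equal span. The arrays of a number lie near each other in most panels, with TP53I3 higher in number 3, PERP lower in number 3 and PLK2 lower in number 2.

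The next members in order of p did not pass the adjusted threshold. PERP, a tetraspan membrane protein of desmosomes and apoptosis, read 5.82, 5.96 and 5.57 after anti-miR-137 and 5.96, 5.92 and 5.60 in control cells. Both arrays numbered 3 were the lowest, and the difference between numbers 3 and 1 was -0.30 (interval -0.47 to -0.13, adjusted p 0.057 in limma). The PERP probe set carries the suffix x of possible cross-hybridisation, and its mean of 5.80 lay just above the filter of 5.69. Its 2 other probe sets lay below the filter, at -0.34 and -0.0088. TNFRSF10B read 10.33, 10.07 and 10.21 after anti-miR-137 and 10.35, 10.08 and 10.24 in control cells, so that the arrays of a number were within 0.03 of each other while numbers differed. The difference between numbers 2 and 1 was -0.27 (adjusted p 0.20), but without probe sets of possible cross-hybridisation it was 0.18.

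SESN2, whose values are given above, was higher in number 3 than in number 1 by 0.33 (interval 0.12 to 0.53, adjusted p 0.071), while its other probe set gave -0.020. TIGAR, a phosphatase that steers sugar phosphates away from glycolysis, read 8.69, 8.71 and 8.84 after anti-miR-137 and 8.65, 8.68 and 8.94 in control cells. Both arrays numbered 3 were the highest for TIGAR, by 0.22 over number 1 (interval 0.054 to 0.38, adjusted p 0.10), and its other probe set gave 0.19. PPM1D followed the same order, at 0.19 over number 1 (adjusted p 0.12), with 0.078 to 0.39 in its 3 other probe sets.

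MDM2 was higher in number 3 than in number 1 by 0.23 (adjusted p 0.15), but the arrays of these numbers overlapped. PLK2 was lower in number 2 than in number 1, by -0.32 (adjusted p 0.26), and both arrays numbered 2 were the lowest of the 6. The only other PLK2 probe set above the filter gave 0.057, and fits without 1 array gave -0.46 to -0.18. POLH read 7.02, 6.68 and 6.94 after anti-miR-137 and 6.72, 6.64 and 7.10 in control cells, again with both arrays numbered 2 the lowest. Between numbers 3 and 1 this POLH probe set gave 0.15 and the 3 others -0.12 to 0.19, with 1 of the 3 of the same sign. ZMAT3, a zinc finger protein that binds RNA, read 8.62, 8.62 and 8.47 after anti-miR-137 and 8.61, 8.67 and 8.46 in control cells. Both of its arrays numbered 3 were the lowest (-0.15 against number 1, adjusted p 0.18), in the opposite direction to TP53I3.

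As a group the members had no common direction between numbers. Between numbers 3 and 1, 16 of 27 were higher in number 3 (59.3%, against 47% of all genes) and the median was 0.046, beside -0.012 over all genes. Arrays numbered 3 and 1 did not overlap for 15 members: 8 were higher in number 3 (29.6%, against 28.9% of all genes), namely TP53I3, SESN2, GADD45A, DDB2, AEN, TIGAR, PPM1D and EI24, and 7 were lower (25.9%, against 31.9%), namely CDKN1A, MDM4, ZMAT3, RRM2B, TNFRSF10B, XPC and PERP. With 2 arrays per number, such a separation is common among all genes. Between numbers 2 and 1, 0 members were called in limma (0.0316% of all genes) and 2 had an unadjusted p under 0.05 (7.41%, against 13.2%). Between numbers 3 and 2, 0 were called (0.00791% of all genes) and 10 had an unadjusted p under 0.05 (37%, against 16%).

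**Figure D4:**
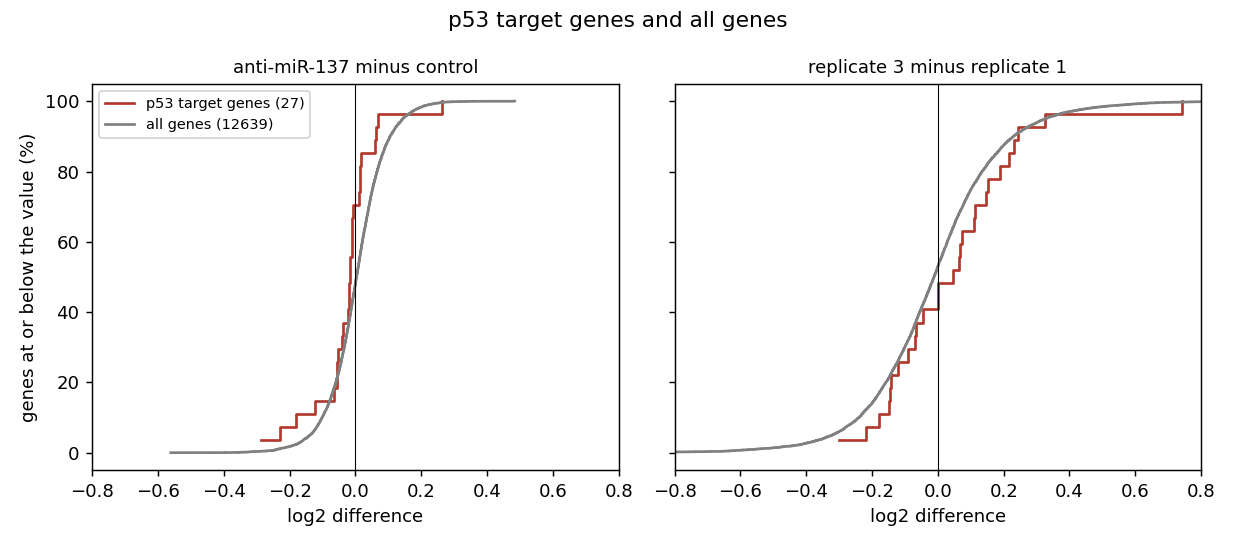
Cumulative share of genes, in percent, at or below each log2 difference, for the 27 measured p53 targets and all 12639 genes, with anti-miR-137 minus control on the left and replicate 3 minus replicate 1 on the right. On the left the members' curve has more genes below 0 than that of all genes (70.4% against 48%), and both curves are wider on the right.

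A list of cell cycle genes differed between numbers in a common direction. It holds 25 cell cycle genes that p53 can lower through p21 and the DREAM complex. Whether p53 controlled them in these cells was not tested. Of the 25, 24 were measured, and all 24 were higher in number 3 than in number 1 (median 0.42). In limma 18 of them were called (75%, against 4.39% of all genes). The F test of number called 8 of these 24 genes (33.3%, against 2.53% of all genes). Both counts of calls were 0 in the fits without anti-miR-137 array 1 or 3 or control array 1 or 3, and with dim probe sets kept they were 5 and 0. All 24 genes stayed higher in number 3 than in number 1 in each of the 6 fits without 1 array. The leading cell cycle genes in the F test were RRM2, a ribonucleotide reductase subunit (0.78 between numbers 3 and 1), the replication factors MCM2 (0.63) and CDC6 (0.88), the cell cycle transcription factor FOXM1 (0.82), and MCM6 (0.55) and MCM4 (0.50) of the replicative helicase. The summed log2 values of the 24 genes were 247.9 and 246.9 in number 3, 241.5 and 241.0 in number 2, and 237.1 and 236.1 in number 1, with the anti-miR-137 array given before the control array. CDKN1A differed between numbers 3 and 1 by -0.092 (interval -0.27 to 0.088, adjusted p 0.45 in limma), and both its arrays numbered 3 lay below both numbered 1. Its other probe set gave -0.080. Whether CDKN1A had a part in the cell cycle difference was not tested. The part of this cell cycle difference in the values of TP53I3 and the other members was not tested.

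For treatment the 24 cell cycle genes gave 0 calls and 0 genes at an unadjusted p under 0.05, with a median of 0.056. Of the 24, 7 had a lower mean after anti-miR-137 (29.2%, against 48% of all genes) and 17 a higher one, and 9 were higher in the anti-miR-137 array of all 3 numbers (37.5%, against 15% of all genes). Among the damage sensors and regulators of p53, the F test of number called 2 of 18 (11.1%, against 2.53% of all genes), CHEK1, a checkpoint kinase, and CDKN2A, which encodes the MDM2 inhibitor ARF and the CDK inhibitor p16. CHEK1 was higher in number 3 than in number 1 (0.53) and CDKN2A was lower (-0.38). Of the 34 further p53 targets the F test called 1 (2.94%, near the share of all genes), KITLG, the ligand of the receptor KIT (0.54 between numbers 3 and 1, adjusted p of the F test 0.048), which is named here after its values were seen. Of the 15 noradrenergic markers it called 2 (13.3%), the neurofilament genes NEFL and NEFM, with 0.66 and 1.23 between numbers 3 and 1, named on the same basis. Of these 15 markers 11 were higher in number 3 than in number 1, but only 4 were higher than in number 2. These F test calls, too, were 0 without anti-miR-137 array 1 or 3 or control array 1 or 3, and with dim probe sets kept. The labels do not say what separates the numbers, and culture, handling and array processing cannot be told apart.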

How the data were processed

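RNA from 6 samples of SH-SY5Y cells was hybridised to 1-colour arrays. The deposited table holds a log2 value per probe set and array, which the authors made with RMA in R 3.0.1, per the submitters' processing notes. RMA corrects background, equalises the arrays' distributions and summarises probes, so a shift of all transcripts together cannot be seen. Scanner files were not used here. Labels mapped each of the 6 columns to a sample. Besides 102 control probe sets, the table held 45278 probe sets with 1 gene symbol, 1333 with several and 2782 with none, and only the first kind was used.

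Probe sets whose mean level was under the 40th percentile of all means (a log2 value of 5.69) were left out, leaving 27514 probe sets and 12639 genes, each represented by its brightest probe set. The comparison of groups used limma 3.58.1 (R 4.3.3; lmFit, then eBayes, two-sided) with group as the only term, and replicate numbers in a fit with group and number. P-values were adjusted by Benjamini-Hochberg over all 12639 genes, with a threshold of 0.05. The fits were run on simulated data with planted changes. For treatment these data held no difference between replicate numbers, so the check does not cover the spread between numbers in these arrays. Values in every array are given for the 6 members with the smallest p for treatment, the 10 with the smallest p for number and 10 well-known targets or feedback regulators. Of the other p53 pathway genes, those past the threshold (at most 8) or the 4 with the smallest p are named. The members, the gene lists and these rules were chosen with earlier results of these data known. The replicate numbers were not used as pairs, so the spread between numbers stays in the treatment intervals. The deviations of same-numbered arrays from their group means correlated at 0.552, 0.0728 and 0.653 for numbers 1, 2 and 3. The alternatives tried were other filters, averaged probe sets, leaving out probe sets of possible cross-hybridisation (suffixes x and s), further normalization, a variance prior with trend, array weights, a replicate block and leaving out each array.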

Additional observations from a re-analysis of the deposited data

How the results depend on the processing

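For treatment, 0 genes and 0 members were called under every alternative run. With the replicate block both counts were 0 as well, with 815 genes and 3 members at an unadjusted p under 0.05. The numbers were not taken as pairs, because the labels do not say what they stand for. In its deviations, anti-miR-137 array 2 correlated better with control array 1 (0.156) than with control array 2 (0.0728). By root mean square difference over genes, however, each array was nearest to its same-numbered partner (0.128, 0.163 and 0.136 for numbers 1, 2 and 3). The main treatment fit leaves the spread between numbers in its intervals. The members' median log2 fold change lay between -0.046 and 0.00042 when 1 array was left out, and the fold changes of GDF15, MDM2, PLK3, CCNG1, PHLDA3, RRM2B and SESN1 kept their sign wherever they could be computed. GDF15 and PLK3 could not be computed under the stricter filter. GDF15 could not be computed without probe sets of possible cross-hybridisation either. The calls by replicate number depended on the processing: 320 genes in the F test became 2 with no filter, 1099 with a filter at the 60th percentile, 1797 with a trend in the variance prior, 637 with array weights and 526 with number as the only term, and 0 to 540 without 1 array (540 without control array 2, and 0 without anti-miR-137 array 1 or 3 or control array 1 or 3). Member calls went with them: 0 with no filter, 2 at the 60th percentile and 2 with the trend (TP53I3 and TNFRSF10B), and 0 to 1 without 1 array. The members' median difference between numbers 3 and 1 was 0.0015 at the 60th percentile, 0.078 without probe sets of possible cross-hybridisation and 0.069 after median centring, and -0.013 to 0.046 without 1 array. Without 1 array, the median was 0.0016 to 0.029 between numbers 2 and 1 and -0.037 to 0.093 between numbers 3 and 2. The cause of these shifts was not tested. Of 162 named treatment differences recomputed on all arrays 13 changed sign, and of 114 recomputed without 1 array 27 did.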
